A study of Mus musculus with 3 samples.

Results

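The Zfp genes are the mouse genes whose symbol is Zfp followed by a number. Most encode zinc finger proteins. They were taken from the gene names in peak lists of Smad3 and JMJD3, where the closest transcript of the peak had a curated mRNA accession (NM). This gave 307 Zfp genes among 15423 genes with such a transcript in either list, 301 of them named in the Smad3 list and 229 in the JMJD3 list. The peaks are ChIP-seq peaks (DNA bound by a protein, pulled down with an antibody and sequenced) of mouse neural stem cells, taken from the cerebral cortex of E12.5 embryos and cultured with EGF at 20 ng/ml and FGF at 10 ng/ml. All cells received TGFb at 5 ng/ml, for 30 minutes in the Smad3 and JMJD3 experiments. There was 1 library per antibody and no untreated library, so replicate error is unknown throughout and no value shows an effect of TGFb. The labelled cell type could not be checked, because peak lists hold no expression values.

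Smad3 carries signals of TGF-beta receptors to DNA, where it acts with other transcription factors. JMJD3, the product of Kdm6b, removes methyl groups from lysine 27 of histone H3, a mark of Polycomb repression. Zinc finger genes form the largest family of transcription factor genes in mammals. Many mouse members lie side by side in clusters that grew by gene duplication, and many of the clustered genes encode a KRAB domain, which recruits the corepressor Trim28 and the histone methyltransferase Setdb1 to silence retroelements. Others, such as Zfp143 and Zfp281, are conserved activators or cofactors, and a few that carry the symbol, such as Zfp36, act on RNA.

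A promoter peak is a peak whose midpoint lies within 1000 bp of the transcription start site (TSS) of the gene it names. A region is the stretch left after joining peaks of a list at most 10 bp apart, and a gene's width is that of its widest promoter region. The lists hold no height, fold enrichment or p-value, so width was the only measure of size, and the depth behind each peak is unknown. The question was at how many Zfp genes each protein was listed, and how this went with the genes' place in the genome. To show what these promoters look like, the 250 bases before the start of 6 of them are printed 5′ to 3′ on the gene's strand, from RefSeq on GRCm38.p6. They are the members with exactly 1 promoter entry that were widest for both proteins (Zfp710, Zfp335), widest among those with Smad3 alone (Zfp503, Zfp959), and farthest from any peak naming them among those with neither (Zfp120, Zfp709). Capitals mark CAGAC or its reverse complement GTCTG, the core of the Smad-binding element. The start in this later annotation may differ from the one in the mm9 peak lists.
Zfp710 (chr7:80024564-80024813, plus strand): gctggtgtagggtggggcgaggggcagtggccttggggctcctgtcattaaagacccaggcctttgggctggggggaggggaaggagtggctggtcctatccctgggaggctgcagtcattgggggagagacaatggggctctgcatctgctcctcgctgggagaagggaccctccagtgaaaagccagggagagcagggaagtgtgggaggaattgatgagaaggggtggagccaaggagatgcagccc
Zfp335 (chr2:164911751-164912000, minus strand): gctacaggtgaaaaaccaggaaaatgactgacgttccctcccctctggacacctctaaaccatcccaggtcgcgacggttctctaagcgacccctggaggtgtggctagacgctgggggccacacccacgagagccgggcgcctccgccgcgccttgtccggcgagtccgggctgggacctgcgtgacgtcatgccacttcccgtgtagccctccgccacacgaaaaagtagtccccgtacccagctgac
Zfp503 (chr14:21989602-21989851, minus strand): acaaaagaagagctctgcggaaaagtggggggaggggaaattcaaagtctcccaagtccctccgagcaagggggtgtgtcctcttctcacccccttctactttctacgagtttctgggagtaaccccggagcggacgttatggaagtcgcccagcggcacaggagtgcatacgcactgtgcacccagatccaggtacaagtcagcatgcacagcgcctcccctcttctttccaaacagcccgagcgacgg
Zfp959 (chr17:55891843-55892092, plus strand): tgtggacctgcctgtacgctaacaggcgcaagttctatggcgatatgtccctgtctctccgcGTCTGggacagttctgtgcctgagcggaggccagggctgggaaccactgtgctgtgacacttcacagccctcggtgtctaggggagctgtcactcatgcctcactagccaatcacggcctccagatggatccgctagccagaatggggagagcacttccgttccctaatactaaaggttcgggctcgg
Zfp120 (chr2:150136679-150136928, minus strand): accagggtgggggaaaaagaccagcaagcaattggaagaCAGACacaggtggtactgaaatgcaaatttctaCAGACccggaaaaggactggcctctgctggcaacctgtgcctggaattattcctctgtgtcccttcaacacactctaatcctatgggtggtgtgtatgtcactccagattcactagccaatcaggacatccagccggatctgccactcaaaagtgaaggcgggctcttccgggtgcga
Zfp709 (chr8:71881818-71882067, plus strand): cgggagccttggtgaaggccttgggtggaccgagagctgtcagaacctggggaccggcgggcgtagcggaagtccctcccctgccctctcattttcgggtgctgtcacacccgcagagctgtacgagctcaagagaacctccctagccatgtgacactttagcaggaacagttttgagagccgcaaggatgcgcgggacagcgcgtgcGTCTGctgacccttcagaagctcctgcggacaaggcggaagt
The core was absent from the 250 bases of Zfp710, Zfp335 and Zfp503, present once in those of Zfp959 and Zfp709, and present at 2 places in those of Zfp120. In these 6 promoters the core did not follow the listing of Smad3.

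Smad3 was listed at most Zfp promoters, and JMJD3 at a smaller part of them. Smad3 had a promoter peak at 273 of 307 Zfp genes (88.9%, exact 95% CI 84.9 to 92.2), against 74.6% of all 15423 genes. JMJD3 had one at 181 (59.0%, 53.2 to 64.5), against 58.7%, so its share was near the background. Both were listed at 175 Zfp genes (57.0%, background 56.7%) and neither at 28 (9.12%, background 23.4%). The intervals cover counting error only, and genes are not replicates.

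The Zfp genes therefore stood above the background in promoters with Smad3 and no JMJD3. There were 98 of them (31.9%, background 17.9%). Among the 273 with Smad3, 64.1% (58.1 to 69.8) also had JMJD3, where 76.0% of all Smad3-bound genes did. The share of Smad3-bound genes without JMJD3 was 12.2 percentage points higher for Zfp than for other named genes (Newcombe 95% interval 6.72 to 18.1), and 7.74 points higher (2.59 to 13.4) with a window of 5000 bp. The converse, JMJD3 without Smad3, was found at 6 Zfp genes (1.95%, background 1.98%). Of the 98 genes with Smad3 alone, 71 were not named by any JMJD3 peak, and 13 had a JMJD3 peak centred between 1 and 5 kb from the TSS.

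The background of named genes leaves out genes that no peak names. Over 365 Zfp genes and 20949 coding genes of the RefSeq table, the Smad3 shares were 76.4% and 54.7%, and the JMJD3 shares 51.2% and 43.1%. With this wider background JMJD3, too, was listed more often at Zfp genes. Smad3 without JMJD3 was then found at 98 Zfp genes (26.8%) and at 2732 of all coding genes.

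**Figure D1:**
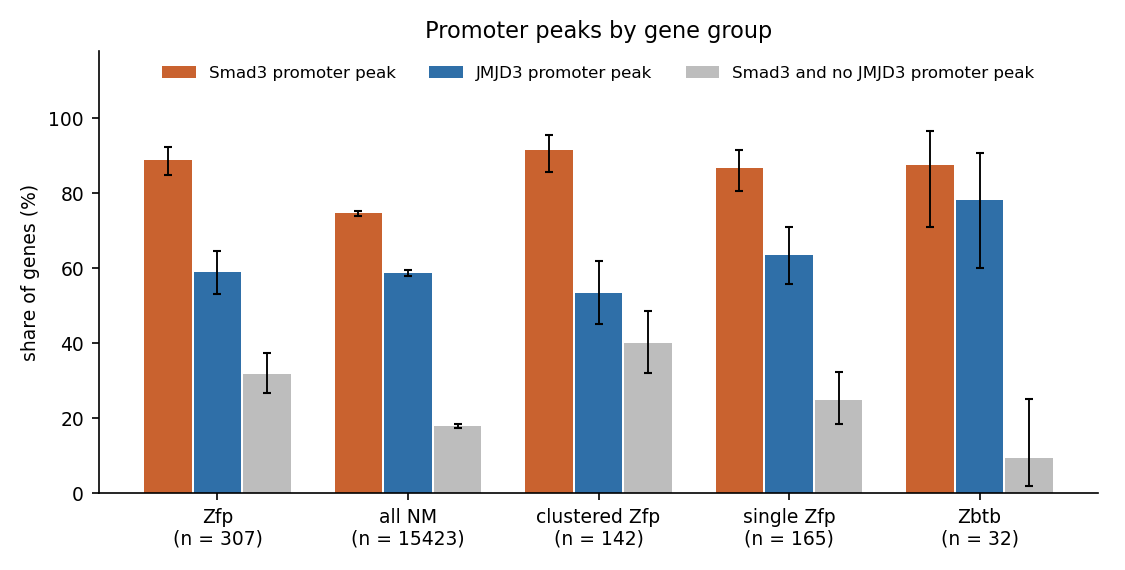
Share of genes (%, vertical axis) with a Smad3 promoter peak, a JMJD3 promoter peak, or Smad3 without JMJD3, for Zfp genes, all named NM genes, clustered and single Zfp genes and Zbtb genes. Error bars are exact 95% intervals for counting error. The Smad3 bar of Zfp genes (88.9%) stands above that of all genes (74.6%), and the JMJD3 bars (59.0% and 58.7%) are level.

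Peaks that named a Zfp gene were more often promoter peaks than those naming any gene. Of the Smad3 peaks that named a Zfp gene, 38.0% were promoter peaks, against 26.1% of those naming any NM gene. For JMJD3 the shares were 35.0% and 25.9%. The median position of promoter peaks was -1 bp for Smad3 and -2 bp for JMJD3, counted from the TSS along the gene. By coordinates, and whatever gene a peak named, Smad3 peaks covered 82.1% of Zfp TSS at -100 bp, and the highest value for other genes was 66.9%, at -50 bp. At 1000 bp downstream the order was the reverse, with 7.17% of Zfp genes and 11.3% of other genes covered. JMJD3 coverage at -100 bp was 55.7% for Zfp genes and 55.5% for other genes.

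**Figure D2:**
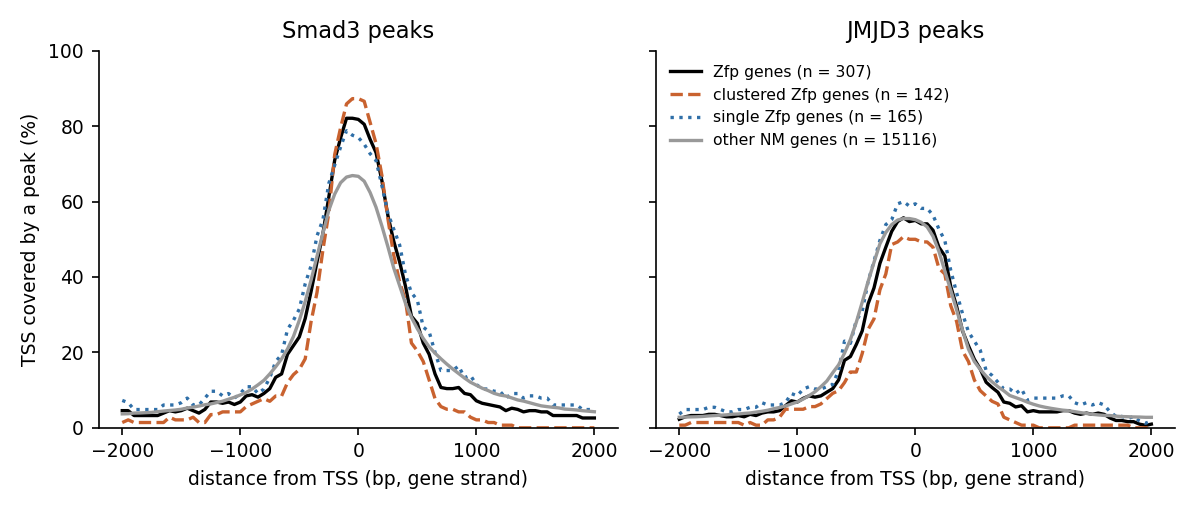
Share of transcription start sites covered by a Smad3 (left) or JMJD3 (right) peak (%), by distance from the TSS along the gene's strand in bp, for Zfp genes, their clustered and single subsets and other NM genes. The Smad3 curve of Zfp genes peaks at 82.1%, above the 66.9% of other genes. The JMJD3 curves of Zfp and other genes are level near the TSS (55.7% and 55.5% at -100 bp). Farther upstream the Zfp curve is the lower one (25.7% and 33.3% at -450 bp).

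The shares depended in part on the 1000 bp limit. With 500, 2500 and 5000 bp the Smad3 share of Zfp genes was 87.6%, 90.2% and 92.5%. For JMJD3 these shares were 56.7%, 61.9% and 66.1%. For Smad3, the nearest peak of Zfp532 was centred at 955 bp, just inside, and that of Zfp663 at 1023 bp, just outside. For JMJD3, Zfp583 lay inside at -864 bp and Zfp821 outside at 1026 bp. A peak is credited to a single TSS, so a gene that starts back to back with another can lose a peak to it. By coordinates 76.1% of all genes had a Smad3 and 61.0% a JMJD3 peak centred within 1000 bp. Of the 34 Zfp genes without a Smad3 promoter peak, 2 had a Smad3 peak centred within 1000 bp by coordinates (Zfp414 and Zfp944). Of the 126 without JMJD3, 4 had such a JMJD3 peak (Zfp189, Zfp646, Zfp821 and Zfp830). Zfp646 and Zfp668 start back to back on chromosome 7, and the JMJD3 region of 2171 bp over the start of Zfp668 was credited to Zfp668.

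Widths at Zfp promoters were close to those of other genes and somewhat smaller for Smad3. The median Smad3 promoter region was 690 bp at Zfp genes (lowest 151, highest 2580) and 760 bp at all genes. The median JMJD3 region was 810 bp (lowest 320, highest 2670), against 860 bp. At the 175 Zfp genes with both, the JMJD3 region was wider at 110 (62.9%) and the Smad3 region at 60. The JMJD3 region was the wider one at 58.2% of all genes with both. The regions overlapped at 166 of the Zfp genes. Over all genes with both, 95.1% of pairs overlapped, and 94.9% of the Zfp pairs did.

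Zfp710 had the widest regions of both proteins, 2580 bp for Smad3 (chromosome 7, 87169041 to 87171620, mm9) and 2670 bp for JMJD3. They were made of 6 Smad3 and 5 JMJD3 peaks. Zfp191, which is needed for myelination by oligodendrocytes, had 2050 bp for Smad3 and 1970 bp for JMJD3. Zfp687, whose product forms a chromatin complex with that of Zfp592, had 1921 bp and 2120 bp. Zfp219, a cofactor of Sox9, had 1920 bp and 1801 bp. Among all genes with a region, the widths of these 4 genes lay between the percentiles 96.6 (JMJD3 at Zfp219) and 99.6 (JMJD3 at Zfp710).

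Wide JMJD3 regions also lay over narrower Smad3 regions. Zfp46 had a JMJD3 region of 2560 bp and a Smad3 region of 1420 bp, the largest gap in favour of JMJD3 among the members (1140 bp). Zfp319 had 1650 bp and 511 bp. The largest gap in favour of Smad3 was at Zfp827, with 1341 bp for Smad3 and 670 bp for JMJD3, in regions that did not overlap. Zfp524 had 2180 bp for JMJD3 and 1790 bp for Smad3, and Zfp335, part of a histone H3 methyltransferase complex and needed by neural progenitors, 1640 bp and 1560 bp.

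The 5 widest Smad3 regions without JMJD3 ran from 1120 to 1591 bp. At Zfp462, a gene of neural development, Smad3 covered 1591 bp (chromosome 4, 54959601 to 54961191), and its nearest JMJD3 peak was centred 1312 bp downstream of the TSS. Zfp503, which acts in the developing striatum, had 1361 bp, and its nearest JMJD3 peak lay at 1097 bp. At both genes JMJD3 was thus listed just past the limit. Zfp959, Zfp444 and Zfp146 had Smad3 regions of 1241, 1210 and 1120 bp and were named by no JMJD3 peak. The 6 genes with JMJD3 alone had narrow regions, from 400 bp at Zfp551 to 730 bp at Zfp414. Among them was Zfp57, which protects imprinted methylation, with 430 bp, and no Smad3 peak named it.

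**Figure D3:**
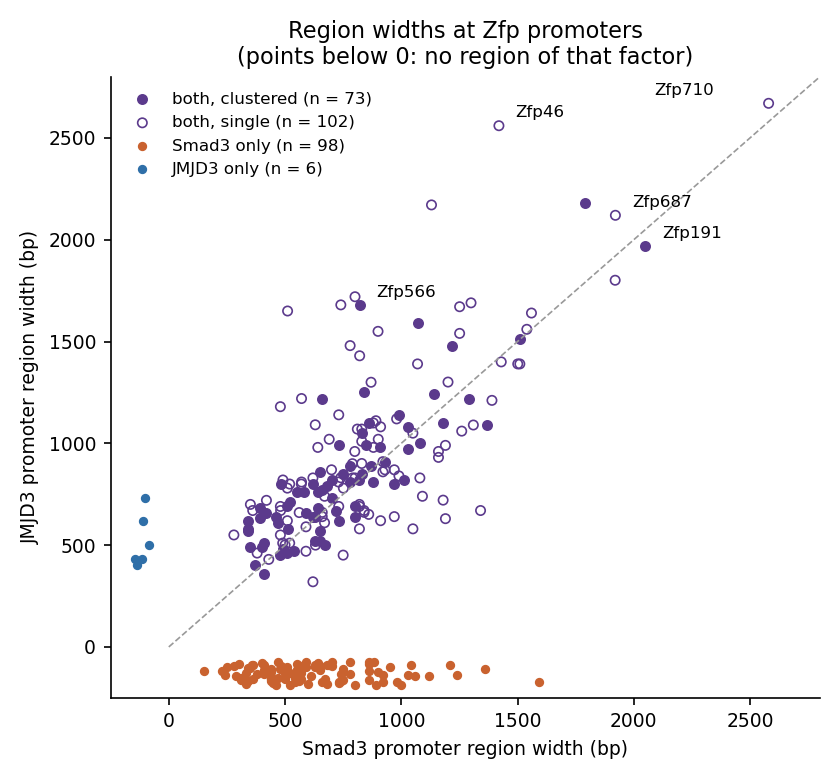
Width of the JMJD3 promoter region (bp, vertical axis) against that of the Smad3 region (bp, horizontal axis) for each Zfp gene with a promoter peak. Points below 0 have no region of that protein and are spread at random across the strip, and the dashed line marks equal widths. Zfp710 lies at the top right (2580 and 2670 bp), and the 98 genes with Smad3 alone reach 1591 bp.

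Narrow Smad3 regions less often had JMJD3 beside them, at Zfp genes and at all genes. Where the Smad3 region was under 400 bp, 11 of 29 Zfp genes had JMJD3 (37.9%), against 39.5% of all such genes. From 400 to under 700 bp it was 60 of 108 (55.6%, 95% CI 45.7 to 65.1), against 70.5%. From 700 to under 1000 bp it was 63 of 86 (73.3%, 62.6 to 82.2), against 82.1%, and from 1000 bp on 41 of 50 (82.0%, 68.6 to 91.4), against 90.6%. The Zfp value was the lower one in each class, and the all-gene share lay outside the Zfp interval in the class from 400 bp only. Zfp genes with Smad3 alone had a median Smad3 width of 570 bp, and those with both 780 bp.

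Many Zfp genes lay in clusters, defined as 3 or more Zfp genes whose neighbouring TSS are at most 250 kb apart. There were 25 clusters with 142 genes (46.3% of members) on 12 chromosomes, holding 3 to 16 genes each. Chromosome 7 held 80 of the 307 Zfp genes (26.1%), where it held 7.32% of all named genes, and 9 of the clusters. Chromosomes 17 and 13 followed with 36 and 29 Zfp genes. Within clusters the median step from one Zfp TSS to the next was 34.6 kb, and 68 of 117 neighbouring pairs had the same strand. Only genes that some peak names can be counted here.

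Clustered Zfp genes had Smad3 about as often as single ones, and JMJD3 at a lower share. Smad3 was listed at 130 of 142 clustered genes (91.5%) and 143 of 165 single ones (86.7%). JMJD3 was listed at 76 clustered genes (53.5%, 95% CI 45.0 to 61.9) and 105 single ones (63.6%, 55.8 to 71.0). The difference was -10.1 percentage points for JMJD3 (clustered minus single, Newcombe 95% interval -20.9 to 0.902) and 4.88 points for Smad3 (-2.33 to 11.9). Both intervals include 0, and they treat genes as independent, which duplicated neighbours are not. Smad3 without JMJD3 was found at 57 clustered (40.1%) and 41 single genes (24.8%). Median Smad3 widths were 630 bp in clusters and 780 bp outside.

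Most clusters held more genes with Smad3 than with JMJD3. Smad3 was listed at every gene of 14 clusters and JMJD3 at every gene of 5, and in 2 clusters JMJD3 was listed at no gene. In 18 of 25 clusters more genes had Smad3 than JMJD3, in 7 the counts were equal, and in 0 was JMJD3 more frequent. Over all named genes, too, Smad3 was listed more often (74.6%) than JMJD3 (58.7%), and JMJD3 without Smad3 was rare (1.98%). Groups of other neighbouring genes were not counted, so this order is not shown to be particular to Zfp clusters. Among the 117 neighbouring pairs within clusters, 37 had JMJD3 at both genes, 48 at 1 of them and 32 at neither.

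The cluster with the most genes lies on chromosome 13, from 67162106 to 67914752 (mm9), with 16 Zfp genes, 15 with Smad3 and 6 with JMJD3. Zfp712, Zfp708, Zfp87, Zfp748 and Zfp738 had both, with Smad3 widths of 800, 780, 391, 420 and 401 bp. A run of 9 genes with Smad3 alone, from Zfp759 to Zfp58 along the chromosome (Zfp759, Zfp455, Zfp458, Zfp457, Zfp595, Zfp953, Zfp456, Zfp429 and Zfp58), separated Zfp708 from Zfp87. Their Smad3 regions ran from 330 bp at Zfp456 to 680 bp at Zfp429. Zfp493 had JMJD3 alone (620 bp), and Zfp273 Smad3 alone (450 bp). Zfp708, which targets a retroelement, was thus the member of the cluster with the widest JMJD3 region, 810 bp.

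The second cluster lies on chromosome 7 from 30553570 to 30954746, with 14 genes, 13 with Smad3 and 5 with JMJD3. Zfp568, a KRAB gene that silences a placental Igf2 transcript, had 1031 bp for Smad3 and 1080 bp for JMJD3. Zfp566 had a JMJD3 region of 1680 bp over a Smad3 region of 821 bp, and Zfp27, Zfp940 and Zfp420 also had both. Zfp84, Zfp30, Zfp790, Zfp14, Zfp82, Zfp260, Zfp382 and Zfp146 had Smad3 alone, from 460 bp at Zfp82 to 1120 bp at Zfp146. Zfp74 had neither, and its nearest peaks were centred at -2063 bp (Smad3) and -1943 bp (JMJD3).

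A pair of clusters held 12 genes each. On chromosome 17, from 21587315 to 22561234, Smad3 was listed at 10 genes and JMJD3 at 8, among them Zfp948 (840 and 1250 bp) and Zfp760 (700 and 820 bp). Zfp820 and Zfp758 had Smad3 alone, at 151 and 410 bp, and Zfp51, Zfp53, Zfp229, Zfp943, Zfp946 and Zfp947 had both. Zfp52 and Zfp944 had neither. Zfp944 starts back to back with Zfp758, and the Smad3 peak over the start of Zfp758 was credited to Zfp758. On chromosome 7, from 24866962 to 25372660, Smad3 was listed at 11 genes and JMJD3 at 6. Zfp428 stood out there with 1510 bp for each protein. Zfp180, Zfp235, Zfp111, Zfp61 and Zfp94 also had both, Zfp112, Zfp114, Zfp109, Zfp108 and Zfp93 had Smad3 alone, and Zfp575 had neither.

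The 2 clusters without JMJD3 were small. Zfp954, Zfp773, Zfp418 and Zfp772 on chromosome 7, within 88.5 kb, had Smad3 regions of 440, 420, 510 and 310 bp. Zfp937 and Zfp442 on chromosome 2 had 920 and 650 bp, and their neighbour Zfp120 had no promoter peak of either protein. In contrast, all 3 genes of the chromosome 8 cluster Zfp868, Zfp869 and Zfp866 had both, as had Zfp397, Zfp35 and Zfp191 on chromosome 18. The small clusters were picked after their counts were seen.

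**Figure D4:**
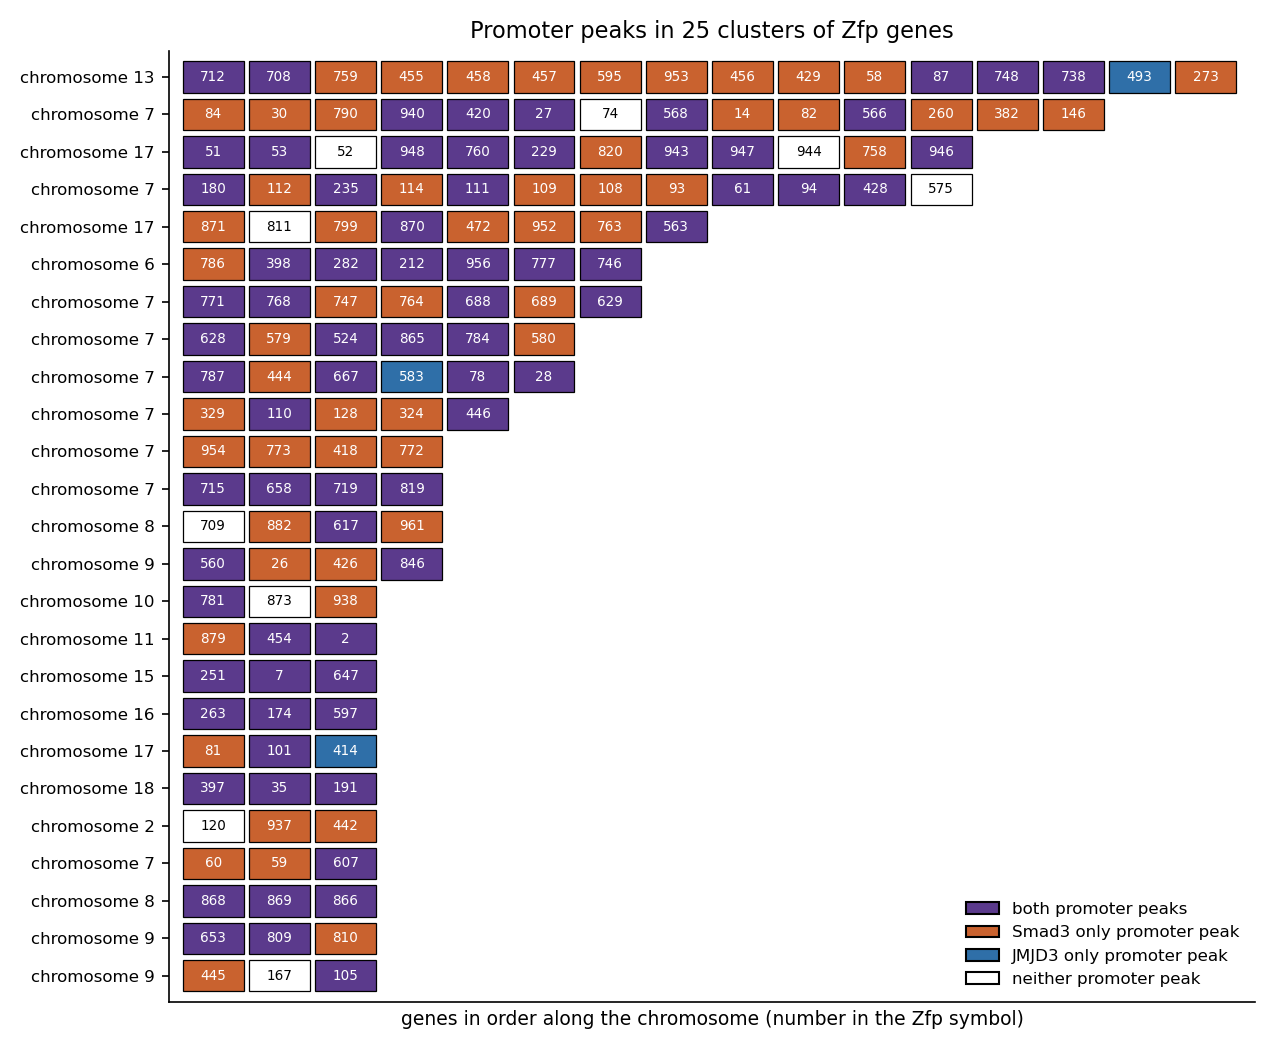
Zfp genes of the 25 clusters in their order along the chromosome, 1 row per cluster, coloured by promoter peaks (both, Smad3 only, JMJD3 only, neither). The top row is the 16-gene cluster of chromosome 13, with a run of 9 genes with Smad3 alone.

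CpG content was lower in Zfp promoters with Smad3 alone than in those with both, by the medians. Of the 307 members, 251 matched the RefSeq promoter table by gene ID, with 312 promoters. Here and below each promoter takes the class of its gene, so a listed peak need not lie at it. A gene with several promoters counts several times where promoters are counted. Zfp promoters with both proteins held a median of 14 CpG dinucleotides in 250 bases, those with Smad3 alone 8, those with neither 6 and those with JMJD3 alone 6. Over all named genes these classes had 17, 12, 5 and 17. At least 10 CpG were found in 73.1% of Zfp promoters with both, 41.1% of those with Smad3 alone and 28.6% of those with neither, and the 7 promoters with JMJD3 alone also gave 28.6%. Clustered Zfp genes had a median of 9 CpG and single ones 13. The part of CpG content in the listing of either protein was not tested.

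Smad elements were counted in the same windows. CAGAC or GTCTG was found in 45.8% of Zfp promoters, 41.2% of the promoters of all named genes and 42.2% of all 32851 promoters of the same length in the table. The share was 44.0% in Zfp promoters with both, 46.3% with Smad3 alone and 53.6% with neither. The palindrome GTCTAGAC was found in 1 Zfp promoter (0.321%, against 0.167% of all), and GGCGCC, a GC-rich Smad element that is its own reverse complement, in 12.8% of Zfp promoters, 15.5% of those of named genes and 9.59% of all. By class GGCGCC was found in 14.3% of Zfp promoters with both, 10.5% with Smad3 alone and 10.7% with neither, where named genes had 18.5%, 14.7% and 7.99%. The GC box GGGCGG or its reverse complement was found in 52.2% of Zfp promoters with both and 26.3% with Smad3 alone, where named genes of these classes had 63.8% and 44.2%. Over all classes the GC box shares were 41.3% for Zfp promoters, 53.1% for named genes and 32.7% for the whole table. Both strands were searched, and these are matches of letters in a window, not sites.

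A word of 12 bases was shared by many Zfp promoters with Smad3 alone. Of all words of that length, ACTACATTTCCC (reverse complement GGGAAATGTAGT) was found at the most Zfp genes, 26 of 251 (10.4%), against 150 of 27025 genes in the table (0.555%). It resembles ACTACAATTCCC, the start of the element bound by Zfp143, itself a member of the family. Over all named genes the word was found at 127 of 12239 (1.04%). The word was picked because it was the most frequent, so its excess over all genes is a description. Its share by listing played no part in the choice. It was found at 17 of 84 genes with Smad3 alone (20.2%), 7 of 141 with both (4.96%), 2 of 21 with neither and 0 of 5 with JMJD3 alone. By place it was found at 21 of 125 clustered genes (16.8%) and 5 of 126 single ones (3.97%). With either spelling the shares were 25.0% with Smad3 alone and 7.09% with both. Counted by promoter, the first spelling was in 17.9% of Zfp promoters with Smad3 alone and 3.85% with both. Promoters of all named genes in these classes had 1.88% and 0.804%. Clustered genes may be duplicates of each other, which was not checked, so these genes cannot be taken as independent.

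Only the 250 bases before the start were searched, which limits where the word could be found. In them it began 14 to 224 bases before the TSS with a median of 62. In 22 of 28 placements it was the reverse complement. The promoters with the widest Smad3 regions in each class are shown, with the word in capitals. They are also from GRCm38.p6, 250 bases before the start, and come from the chromosome 7 and 13 clusters described above.
Zfp566 (chr7:30090511-30090760, minus strand): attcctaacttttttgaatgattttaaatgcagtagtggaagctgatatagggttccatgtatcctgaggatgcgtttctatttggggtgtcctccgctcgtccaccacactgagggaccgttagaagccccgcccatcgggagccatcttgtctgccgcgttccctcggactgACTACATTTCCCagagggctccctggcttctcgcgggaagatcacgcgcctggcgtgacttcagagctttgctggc
Zfp712 (chr13:67061171-67061420, minus strand): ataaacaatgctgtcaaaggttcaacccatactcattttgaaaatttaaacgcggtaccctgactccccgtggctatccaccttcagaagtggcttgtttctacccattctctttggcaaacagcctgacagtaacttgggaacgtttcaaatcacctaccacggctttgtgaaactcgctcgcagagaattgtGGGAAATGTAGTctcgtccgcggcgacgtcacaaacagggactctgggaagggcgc
Zfp84 (chr7:29768302-29768551, plus strand): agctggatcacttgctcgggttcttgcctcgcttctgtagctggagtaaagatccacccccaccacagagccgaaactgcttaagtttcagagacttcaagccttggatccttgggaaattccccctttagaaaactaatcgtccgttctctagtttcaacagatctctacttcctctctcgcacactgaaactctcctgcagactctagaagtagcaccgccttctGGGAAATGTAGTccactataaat
Zfp260 (chr7:30094826-30095075, plus strand): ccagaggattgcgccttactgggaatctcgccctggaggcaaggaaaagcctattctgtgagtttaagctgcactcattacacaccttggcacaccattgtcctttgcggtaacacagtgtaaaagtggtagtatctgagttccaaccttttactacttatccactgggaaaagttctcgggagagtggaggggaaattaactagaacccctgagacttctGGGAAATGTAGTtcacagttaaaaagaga
Zfp566 and Zfp712 had both proteins, with JMJD3 regions of 1680 and 690 bp. Zfp84 and Zfp260 had Smad3 alone, in regions of 950 and 900 bp. The first pair had 14 and 13 CpG in the printed bases, and the second 7 and 4.

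Near-identical promoters could hide peaks where reads map to several copies. Words of 30 bases shared with the promoter of another gene were found in 16.7% of Zfp promoters. Such words also arise where genes start back to back and their windows overlap, with no second copy. Zfp142 and Zfp277, which each start back to back with another gene, had 95.5% and 100% of their words shared. The shares therefore mix overlapping neighbours with copies and do not measure copies alone. They were found in 15.2% of the promoters of named genes and 19.7% of all promoters. The share was 11.0% in Zfp promoters with both, 28.4% with Smad3 alone and 17.9% with neither. Named genes of these classes had 14.9%, 18.5% and 11.3%. Promoters with at least 50% of such words shared made up 4.95%, 7.37% and 7.14% of these Zfp classes. Over named genes they made up 7.08%, 7.55% and 4.32%. How multiply mapped reads were treated is not given in the sources used here, and their part in the lower JMJD3 share was not tested.

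Genes were also grouped by function from general knowledge, where the shares over all named genes were 74.6% for Smad3 and 58.7% for JMJD3. Of 10 conserved activators and cofactors, all had Smad3 and 9 had JMJD3. Zfp143, which binds many promoters, had 1501 bp for Smad3 and 1390 bp for JMJD3. Zfp281, a factor of pluripotent cells, had 880 and 980 bp, and Zfp217, a corepressor partner, 930 and 870 bp. Zfp148 had 620 and 830 bp, Zfp410, which controls Chd4, 821 and 1430 bp, and Zfp91 571 and 1220 bp. Zfp516 had 480 and 1180 bp and Zfp592 430 and 430 bp, in regions that did not overlap at either gene. Zfp64 had Smad3 alone, at 1060 bp.

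Of 14 developmental Zfp genes, 13 had Smad3 and 9 had JMJD3 (64.3%, 95% CI 35.1 to 87.2), so the JMJD3 interval holds the background of 58.7%. The list held 17 symbols. Zfp804a, whose symbol ends in a letter and which is no member, had neither promoter peak. No peak with an NM transcript carried the symbols Zfp24 or Zfp42. Symbols were matched as written, so a gene listed under another symbol would be missed here. The list may also hold a gene more than once under different symbols. Zfp423, whose product works with BMP Smads and Ebf factors, had 990 bp for Smad3 and 840 bp for JMJD3. Zfp521, a factor of early neural differentiation, had 1160 and 931 bp. Zfp238, a repressor in cortical neurons, had 900 bp for Smad3 and 1550 bp for JMJD3, in regions that did not overlap. Peaks named 2 transcripts of this gene. The JMJD3 region was taken for its width, with a peak centred at 917 bp. The nearest JMJD3 peak of Zfp238, in a narrower region, was centred at -179 bp. Zfp365 had 1070 and 1390 bp, Zfp292 830 and 1010 bp, and the corepressor gene Zfp703 690 and 1020 bp. Zfp536, a repressor of neuronal differentiation, had Smad3 alone at 440 bp, as had Zfp161 at 741 bp. A Smad3 peak of the Zfp161 region was centred at -985 bp, and the nearest JMJD3 peak at -1045 bp, past the limit. The centre of that JMJD3 peak lay inside the Smad3 region, so only the limit set the class. Zfp488, an oligodendrocyte gene, had neither, and its nearest peaks lay 3884 bp (Smad3) and 3764 bp (JMJD3) downstream.

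Of 9 genes of retroelement silencing, imprinting or neurotrophin signalling, 8 had Smad3 (background 74.6%) and 6 had JMJD3 (66.7%, 95% CI 29.9 to 92.5, background 58.7%). Zfp809, which silences retroviruses, had 660 bp for Smad3 and 1220 bp for JMJD3. Zfp445, an imprinting factor, had Smad3 alone at 231 bp, as had Zfp932 at 750 bp. Zfp819 had 540 and 470 bp. Zfp110 and Zfp369, paired genes for partners of a neurotrophin receptor, differed: Zfp110 had both (720 and 670 bp) and Zfp369 had Smad3 alone (860 bp).

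Of 9 genes with roles in RNA or ribosomes or other roles outside DNA binding, all had Smad3 (background 74.6%) and 7 had JMJD3 (background 58.7%). The list held 12 symbols. Zfp385a and Zfp385b, which end in a letter and are no members, had neither promoter peak. No peak with an NM transcript carried the symbol Zfp638. Zfp36, which speeds the decay of cytokine mRNAs, had the widest Smad3 region among them, 1310 bp, with 1090 bp for JMJD3. Zfp598, a sensor of collided ribosomes, had 870 and 1300 bp. Zfp706 had 921 and 910 bp in separate regions, Zfp106 700 and 870 bp, Zfp346 840 and 661 bp, Zfp622 670 and 740 bp, and Zfp326 481 and 670 bp. Zfp207, of the mitotic spindle, had Smad3 alone at 881 bp, as had Zfp830 at 400 bp. The nearest JMJD3 peak of Zfp207 was centred at 1493 bp.

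The corepressor genes that serve KRAB proteins were listed almost without exception. Of 16 such genes, all had Smad3 and 15 had JMJD3, where the backgrounds were 74.6% and 58.7%. Trim28, the KRAB cofactor, had 791 bp for Smad3 and 1270 bp for JMJD3, and Setdb1 790 and 610 bp. The heterochromatin protein genes Cbx3 and Cbx5 were the widest, with 2591 and 2210 bp for Smad3 and 1780 bp for JMJD3 at each. Chd3 had Smad3 alone, and its nearest JMJD3 peak was centred at 1327 bp.

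Other zinc finger families were counted in the same way, and no difference between families was tested. Of 32 Zbtb genes, which pair zinc fingers with a BTB domain, 28 had Smad3 (87.5%) and 25 JMJD3 (78.1%), so 3 had Smad3 alone. Of 22 Zfp genes with a letter after the number, 18 had Smad3 and 12 JMJD3. Each of 9 Zkscan genes had Smad3 and 6 had JMJD3, and of 8 Zscan genes 6 and 3 did. The last 2 families are small, and intervals for them are wide.

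Many Zfp genes had no peak away from their promoter, and a few had many. Of the 307 members, 154 (50.2%) were named by no Smad3 peak beyond 1 kb, against 27.6% of all genes, and 192 (62.5%) by no JMJD3 peak there, against 39.4%. A distal Smad3 peak was found for 34.5% of clustered and 63.0% of single Zfp genes, against 72.4% of all genes. For JMJD3 the shares were 17.6%, 54.5% and 60.6%. The part of the distance to the next TSS in these shares was not tested. The 5 members with the most distal peaks held 223 of 849 distal Smad3 peaks (26.3%) and 171 of 556 distal JMJD3 peaks (30.8%).

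Zfp608 had by far the most, 110 Smad3 and 89 JMJD3 peaks, in 75 and 56 regions. They reached from 704 kb upstream to 538 kb downstream for Smad3, and 76 of the 110 overlapped a JMJD3 peak. Its promoter regions were of common size, 751 bp for Smad3 and 780 bp for JMJD3. Zfp462 had 32 Smad3 and 24 JMJD3 distal peaks, mostly upstream (25 and 17). Zfp521 had 26 and 19, of which 15 and 11 lay inside the gene. Zfp957 had 34 and 19 and Zfp366, known from dendritic cells, 21 and 20, and neither gene had a promoter peak. A gene named by many peaks may only be the closest TSS in a wide stretch without other genes, and a link between such peaks and the gene was not tested.

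**Figure D5:**
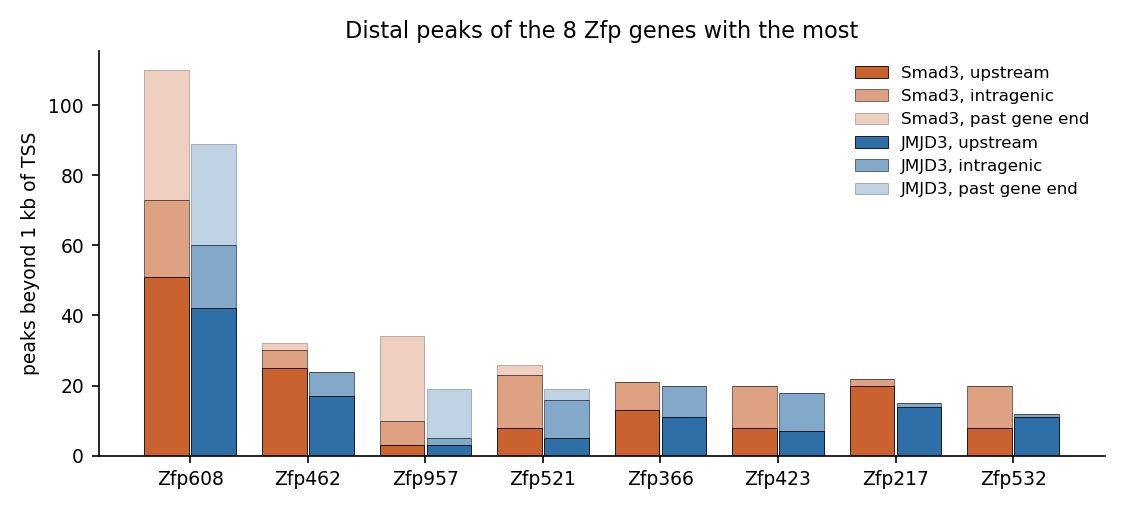
Number of Smad3 and JMJD3 peaks centred more than 1 kb from the TSS (vertical axis) for the 8 Zfp genes with the most, split into peaks upstream, inside the gene and past its end. Zfp608 has 110 Smad3 and 89 JMJD3 peaks, and the next gene by the sum of both, Zfp462, 32 and 24.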

How the data were processed

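The deposited peak lists of 1 Smad3 and 1 JMJD3 library were used, and the input library was not analysed here. Per the submitters' processing notes, the authors used CASAVA, Bowtie 0.12.7, MACS 1.4 and build mm9. Each tool's role and thresholds, and any use of the input, are not stated in the labels. Per the file headers, each row holds the peak's coordinates, its closest RefSeq transcript and the distance of the peak midpoint from that TSS. The lists held 98086 Smad3 and 63154 JMJD3 peaks and no score, so their depth is unknown.

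Peaks at most 10 bp apart were joined, giving 70562 and 45018 regions (pandas 2.3.3, numpy 2.4.6). Joining, promoter assignment and clustering were tested on simulated peaks. Shares carry exact Clopper-Pearson 95% intervals (scipy 1.17.1). Differences of shares carry Newcombe 95% intervals over genes, which cover counting error only, and with 1 library per antibody no test over replicates was possible. A planned count of zinc fingers per protein was not run, because no protein sequences were used here. Promoters came from RefSeq on GRCm38.p6, matched by Entrez ID, and coordinates were not converted.

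Named genes were those with the widest regions for each or both proteins, the widest listed for 1 protein only, those with the most distal peaks, the largest clusters (ties kept) and 5 lists from general knowledge. The members and lists were chosen with earlier results of these data known. Any other gene was picked with its values in view.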

Additional observations from a re-analysis of the deposited data

How the results depend on the processing

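No paired analysis was possible because there was 1 library per antibody and no replicate, so leaving out a replicate was not possible either. Of 82 values recomputed under alternatives, 57 stayed within the 95% interval of the main value, 25 left it, and 0 differences whose interval excludes 0 changed sign. The JMJD3 difference, whose interval includes 0, ran from -0.781 to 2.30 points with named genes as background. With a window of 5000 bp the shares of Zfp genes with Smad3, JMJD3 and both rose to 92.5%, 66.1% and 63.8%. With only the wider 50% of peaks of each list they were 74.9%, 47.9% and 43.6%. With equal numbers of peaks the Smad3 share was 82.1%. Over all these settings the Smad3 share of Zfp genes exceeded that of other named genes. Against all coding genes of the RefSeq table, a background chosen after seeing the data, the excess of Zfp over other genes was 22.2 points for Smad3 and 8.33 points for JMJD3, and with named genes it was 14.6 and 0.252 points. The JMJD3 excess thus depends on the background, and the set of Zfp genes changed along with it. Without joining, the median widths were 500 bp for Smad3 and 650 bp for JMJD3, since single peaks are narrower than regions. The clustered share was 36.5% with steps of at most 100 kb, 56.4% with 500 kb, and 33.6% where no other named gene may lie between. In the last setting the JMJD3 difference of clustered minus single genes was -12.7 points with an interval that excludes 0 (-24.2 to -1.09). With no replicate and no read numbers, a gene without a listed peak cannot be told from one with a peak under the threshold.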
